A study of Mus musculus with 6 samples.

Results

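The Egr, Fos and Jun genes encode transcription factors that many cells make within minutes of a stimulus. The listed set held 10 genes, namely Egr1, Egr2, Egr3, Fos, Fosb, Fosl1, Fosl2, Jun, Junb and Jund, among 18820 genes named on the arrays. A gene counted as measured where a probe set of the platform annotation named it alone, and among several such probe sets the 1 with the highest mean over the 6 arrays was taken, so the rows were selected on measured levels. In practice each of the 9 genes that could be measured had 1 such probe set. Fosl1 was listed only on 2 probe sets that also name Ccdc85b and is not analysed here. All 9 measured genes lay above the limit for testing, a mean log2 level of 3.87 (the 40th percentile of the genes), which 11292 genes passed.

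The cells were C2C12, mouse myoblasts of an immortalized line that fuse into myotubes in low serum. Those of all 6 arrays had differentiated for 6 days in 2% horse serum before transfection with 50 nM of a locked nucleic acid oligonucleotide, and RNA was taken 24 h later, on day 7. In the silenced group (3 arrays) the oligonucleotide was directed against the microRNA miR-382-5p, whose degree of inhibition was not examined here. In the control group (3 arrays) it was the negative control A. Both groups therefore carried a transfected oligonucleotide, and untransfected cells are not analysed here. The labels number the arrays of each group 1 to 3 without saying whether they came from separate cultures. The p-values thus cover only the spread among these samples, which may be technical, in 1 cell line.

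Egr proteins are zinc finger factors that bind GC-rich sites, and the corepressors Nab1 and Nab2 limit their activity. Fos proteins pair with Jun proteins through leucine zippers to form the factor AP-1, and Jun proteins can also pair among themselves. Transcription of several of these genes is driven by serum response factor and its Elk cofactors downstream of the kinases ERK and JNK. In skeletal muscle Egr3 is known for its need in the formation of muscle spindles.

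The microRNA that the oligonucleotide targets and short promoter stretches of members are shown. They place the sequences that the comparison rests on and the elements through which this family is commonly controlled. RefSeq (build GRCm38.p6) gave the mature microRNA at chr12:109733781-109733802 on the plus strand, with its seed, bases 2 to 8, in capitals:
miR-382-5p: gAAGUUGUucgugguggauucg

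Promoter windows of 250 bases before to 50 bases after the annotated start were given by RefSeq for 7 of the 10 genes, in 11 windows, 5 of them for Egr2. Both strands were searched for TGANTCA and TGACGTCA, the AP-1 and cyclic AMP response elements, for the looser TGANNTCA and the core TGACGT, which can overlap, for the Egr site GCGNGGGCG and for the CArG box, the site of serum response factor. Matches before the start in Fos, Jun, Egr2 and Fosb are printed 5′ to 3′ on the gene's strand with the match in capitals:
Fos, chr12:85473812-85473841, plus strand: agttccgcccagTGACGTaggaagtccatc
Jun, chr4:95052249-95052278, minus strand: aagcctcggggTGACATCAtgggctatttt
Egr2, chr10:67537787-67537816, plus strand: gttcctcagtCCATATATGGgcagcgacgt
Egr2, chr10:67537801-67537830, plus strand: atatgggcagcgACGTCAcgggtattgaag
Fosb, chr7:19310076-19310105, minus strand: tgacgcaagcGCGGGGGCGggtcccggagg

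The core TGACGT began at position -66 from the start of Fos and was present in 7.51% of all 32851 windows. The Jun match to TGANNTCA began at position -45, and 14.1% of windows held that pattern. A CArG box occurred in 1.63% of windows and in 4 of the 11 member windows, all 4 of them windows of Egr2. Windows of the same gene can share a site, and the listed matches lay in chr10:67537484-67537513 and chr10:67537787-67537816. The 4 windows are therefore not separate cases to set against the share of all windows. Sites more than 250 bases before a start were not searched, and Egr1, Egr3 and Fosl1 had no window. A CArG box near the other members is thus not excluded. The Egr site occurred in 5.55% of windows, among them those of Fosb and Fosl2. TGANTCA (7.81% of windows) and TGACGTCA (1.79%) had 0 matches in the member windows. These matches describe letters in a window and were not tested against the expression values.

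The cells were checked against marker lists, and arrays by number. All 8 myotube markers were above the limit for testing. Their mean level ran from 10.56 to 10.64 in control and from 10.65 to 10.80 in silenced arrays, a narrow gap. Singly, 3 of the 8 lay higher in silenced arrays without overlap, against 6.94% of all tested genes, and 0 were called. All 7 myoblast markers were above the limit as well, with mean levels of 7.51 to 7.71 in control and 7.52 to 7.63 in silenced arrays. Of the 6 fibroblast markers 5 were above it. Of the macrophage markers Cd68 alone and of the osteoblast markers Bglap alone, 1 of 4 in each list, were above it, while Adgre1 and Ptprc, defining genes of macrophages and leukocytes, were below it. None of the 4 adipocyte and 3 endothelial markers was above it. In these bulk samples fewer cells of a type cannot be told apart from less RNA per cell. Both arrays numbered 1 stood apart from the other 4 in many genes, so group differences of members that rest on them are given with and without them. The contrast of number 1 itself cannot be fitted without them.

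Treatment against miR-382 was accompanied by no change in the family that passed the test across all genes. Of the 9 measured members 0 were called by limma at an adjusted p under 0.05, and of all 11292 tested genes 0% were called (smallest adjusted p 0.487, with 542 genes at an unadjusted p under 0.05). Egr3 had the largest difference of the members. It was higher in each silenced array than in any control array, and no other member separated the groups. Among all tested genes 6.94% lay higher in silenced arrays without overlap and 4.87% lay lower, so 1 such gene among 9 is close to the background. Means were higher in silenced arrays for 6 members and lower for 3, where 5946 of the 11292 tested genes were higher. The median difference of the members was 0.13 log2 against 0.0089 over all tested genes.

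**Figure D1:**
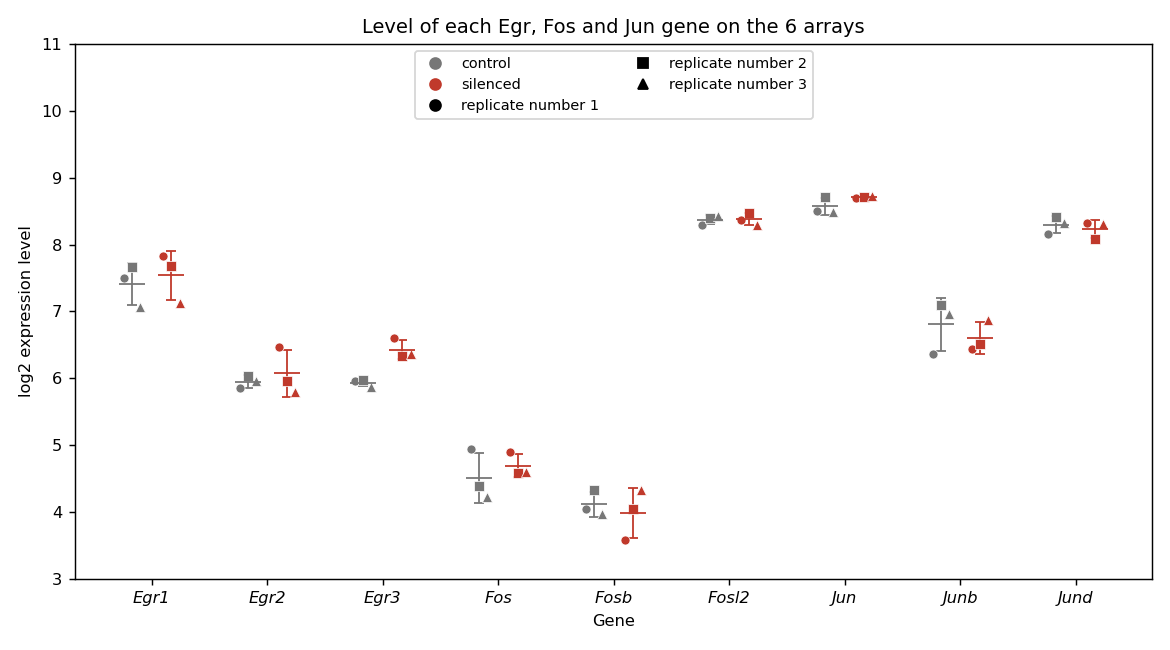
Log2 expression level (vertical axis) of the 9 measured Egr, Fos and Jun genes (horizontal axis) on each of the 6 arrays. Grey marks are control and red marks silenced arrays, the symbol gives the replicate number, and the line with bars is the mean ± SD of 3 arrays. Egr3 is the 1 gene whose silenced arrays, from 6.33 to 6.60, all lie above its control arrays, from 5.88 to 5.97.

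Egr3 (chr14:70077317-70082613 in GRCm38.p6), the Egr factor of muscle spindles, read 5.96, 5.97 and 5.88 in control arrays 1, 2 and 3. In silenced arrays 1, 2 and 3 it read 6.60, 6.33 and 6.36. The lowest silenced array lay 0.36 above the highest control array. The difference was 0.50 ± 0.10 (SE) on the log2 scale, or 1.41-fold (unadjusted 95% interval 1.21-fold to 1.65-fold). Its limma p was 0.00111 before adjustment, and only 8 of the 11292 genes had a smaller one, but the adjusted p was 0.871. In the fit with a replicate block the adjusted p was 0.464, and 8 genes again had a smaller p. An exact permutation test of the group means gave p = 0.1 (2-sided), the smallest that 3 against 3 arrays allow. The differences within numbers 1, 2 and 3 were 0.64, 0.36 and 0.48, so all 3 pairs agreed in sign. That agreement, the exact p and the sign with 1 array left out all follow from the lack of overlap. They add no separate support. Leaving out 1 array at a time gave differences from 0.41 to 0.54. Without both arrays numbered 1 the difference of Egr3 was 0.42, while those of Fos, Junb and Jund, described further on, became 0.29, -0.34 and -0.18, and 0 genes were called.

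Egr1 (chr18:34861207-34864956), the most studied Egr factor and an early responder to ERK, read 7.50, 7.66 and 7.06 in control arrays 1 to 3. It read 7.82, 7.68 and 7.12 in silenced arrays 1 to 3. The groups overlapped, and within each group array 3 was the lowest. The difference of 0.13 ± 0.22 (SE) had an adjusted limma p of 0.937. The pair differences were 0.32, 0.02 and 0.06, all above 0, as for Egr3. Such agreement of 3 pairs upward was found for 19.7% of all tested genes and downward for 15.8%, and among members for 2 upward and 0 downward. Without control replicate 3 the difference of Egr1 was -0.042, and without silenced replicate 1 it was -0.0097.

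Egr2 (chr10:67534469-67542188), best known as a regulator of myelination, read 5.85, 6.04 and 5.96 in control arrays. It read 6.47, 5.96 and 5.80 in silenced arrays. Silenced array 1 stood above the control range, array 2 within it and array 3 below it. The difference of 0.13 ± 0.17 (SE) had an adjusted limma p of 0.917 and rested on that array, since it was -0.072 without it. Without both arrays numbered 1 it was -0.12.

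Among the Fos genes, Fos (chr12:85473890-85477274), the prototype partner of Jun, read 4.94, 4.38 and 4.22 in control arrays and 4.89, 4.59 and 4.60 in silenced arrays. The array numbered 1 was the highest of its group in both. The difference was 0.18 ± 0.19 (SE) with an adjusted limma p of 0.899. Fosb (chr7:19302696-19310118), an alternative Jun partner, read 4.04, 4.33 and 3.97 in control arrays and 3.58, 4.04 and 4.33 in silenced arrays. Its difference was -0.13 ± 0.19 (SE), with an adjusted limma p of 0.927, and was 0.073 without silenced replicate 1. Fos and Fosb were dim, with means of 4.60 and 4.05 near the limit for testing.

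Fosl2 (chr5:32136472-32157840), which encodes the partner Fra-2, read 8.29, 8.40 and 8.43 in control and 8.37, 8.47 and 8.29 in silenced arrays. Its 6 values spanned 0.18 and its difference was 0.0052 (unadjusted 95% interval -0.20 to 0.21). Only 9.45% of tested genes had a range that small or smaller.

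Jun (chr4:95049036-95052222), the central AP-1 subunit, read 8.50, 8.72 and 8.49 in control arrays. It read 8.70, 8.71 and 8.72 in silenced arrays. The silenced arrays agreed closely while control array 2 lay with them and control arrays 1 and 3 lay lower. The difference of 0.14 ± 0.09 (SE) had an unadjusted limma interval of -0.066 to 0.35 and an adjusted p of 0.871, and the groups overlapped.

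Junb (chr8:84976909-84978748), a Jun protein that often opposes Jun in growth control, read 6.36, 7.10 and 6.96 in control and 6.43, 6.51 and 6.88 in silenced arrays. Both arrays numbered 1 were the lowest of their group. The difference was -0.20 ± 0.21 (SE) with an adjusted limma p of 0.898, and the pair of number 2 differed most, by -0.60. Jund (chr8:70697739-70700616), the Jun gene usually expressed at a steady level, read 8.16, 8.41 and 8.33 in control and 8.33, 8.08 and 8.30 in silenced arrays. Its difference was -0.063 ± 0.106 (SE), with an unadjusted interval of -0.31 to 0.19.

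**Figure D2:**
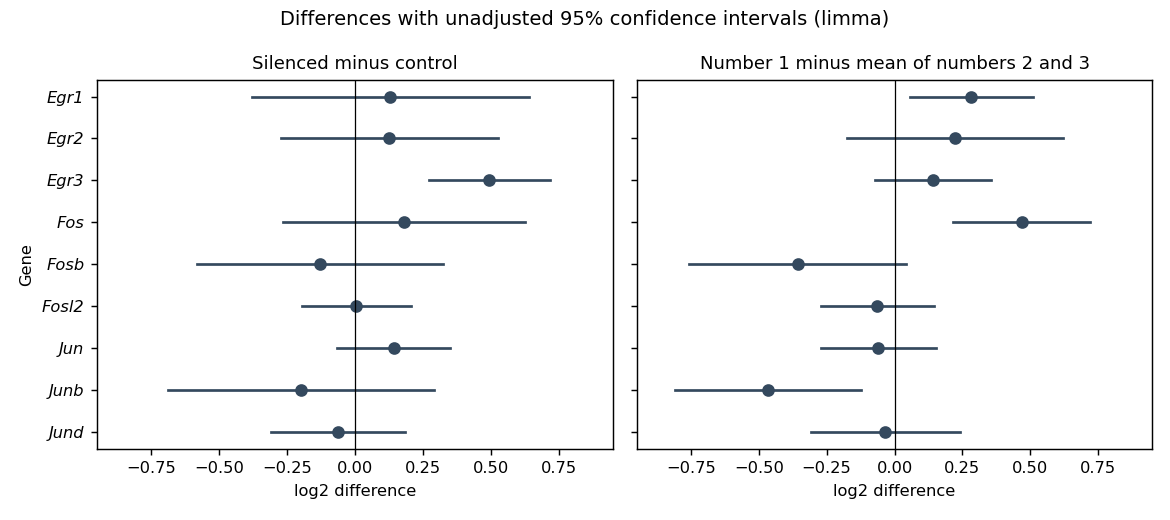
Log2 differences (horizontal axes) of the 9 genes (vertical axis), silenced minus control on the left and number 1 minus the mean of numbers 2 and 3 on the right. Points are limma estimates and lines their 95% intervals, which are not adjusted for the number of genes. On the left the interval of Egr3, from 0.27 to 0.72, lies above 0 and the other 8 cross it, and on the right those of Egr1, Fos and Junb do not cross 0.

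The unadjusted 95% intervals bound what these arrays could show. In the fit without a block, an increase as large as that of Egr3 lay within the intervals of Egr1 (up to 0.64), Egr2 (up to 0.53) and Fos (up to 0.62). A decrease of that size lay within those of Fosb (down to -0.58) and Junb (down to -0.69). With the replicate block the intervals ended at 0.34 for Egr1 and 0.42 for Fos, below the Egr3 difference of 0.50, while those of Egr2 (up to 0.50), Fosb (down to -0.51) and Junb (down to -0.52) still reached a change of that size. Without the block the intervals of Fosl2, Jun and Jund ended at 0.21, 0.35 and 0.19. A p above the threshold does not show that these genes were equal in both groups.

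In 6 of the 9 members number 1 differed from numbers 2 and 3 by more in size than the groups differed. These were Egr1, Egr2, Fos, Fosb, Fosl2 and Junb. The comparison was not tested, and the share of all genes with that order was not counted. Over all tested genes the median absolute difference was also larger for number 1, at 0.1217 against 0.09 between groups. No member passed the test across all genes. The comparison of the 3 numbers, with group as a covariate, asks how far arrays of the same number differ from the others. The contrast of number 1 with numbers 2 and 3 was chosen with the earlier result known that arrays numbered 1 stand apart. Over all tested genes the F test called 3.12%, and the contrast called 2.92% as higher and 3.57% as lower in number 1. Of the 9 members 0 were called by either limma test, where 2305 genes had an unadjusted p under 0.05 in the F test and 2802 in the contrast. Without overlap of number 1 with the other 4 arrays lay 16.0% of genes above and 15.3% below, and among members Fos above and Junb below.

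Egr1 had means of 7.66, 7.67 and 7.09 over the 2 arrays of numbers 1, 2 and 3. It was the arrays numbered 3 that stood apart, in control (7.06) and silenced (7.12) cells alike. Its adjusted F-test p (limma) was 0.0578, the smallest of the members. The call turned on settings, with an adjusted p of 0.00669 when the 60th percentile was the limit for testing, 0.0464 after a further quantile normalization and 0.00466 with an intensity trend in the variance. Without control replicate 1, or without silenced replicate 1, the adjusted p was also under the threshold, but number 1 then had only 1 array. Over all the alternatives tried the adjusted p lay between 0.00409 and 0.354.

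Fos had means of 4.92, 4.48 and 4.41 over numbers 1, 2 and 3. Number 1 exceeded the others by 0.47 ± 0.10 (SE), with an adjusted limma p of 0.0526, and the excess was 0.64 in control and 0.30 in silenced arrays. It passed the threshold when all probe sets of a gene were averaged (limma, adjusted p = 0.0495). Fos has 1 probe set, so its own values were the same there. Without silenced replicate 1 the contrast rests on control array 1 alone, and the difference of Fos was 0.64. Junb ran the other way, with means of 6.39, 6.80 and 6.92 and a difference of -0.47 ± 0.14 (SE), for which limma gave an adjusted p of 0.110. It was -0.67 in control and -0.26 in silenced arrays. Junb was called by limma without silenced replicate 2 (-0.62, adjusted p = 0.0267), with the 60th percentile limit (0.0306) and with an intensity trend (0.0329). Without silenced replicate 1 its difference was -0.67, again from control array 1 alone. In the same arrays numbered 1 the mean level of the fibroblast markers was 7.53 and 7.48 against 7.73 to 7.96 in the other 4. All 5 tested markers had a lower mean in number 1, but not array by array. Col1a1 read 10.70 in control array 1 and 10.68 in control array 3. The part of this marker level in the differences of Fos and Junb was not tested.

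For the remaining members number 1 differed by 0.22 ± 0.17 (SE) in Egr2, 0.14 ± 0.09 (SE) in Egr3 and -0.36 ± 0.17 (SE) in Fosb. In Fosl2, Jun and Jund it differed by -0.064, -0.059 and -0.034. Without control replicate 1 the contrast rests on silenced array 1 alone, and it then called Egr1 (0.42, adjusted p = 0.0446), Egr2 (0.59, adjusted p = 0.00982) and Fosb (-0.60, adjusted p = 0.0354). Such a fit by limma assumes that the lone array varies like the rest. The mean of number 1 was thus above that of the others in 4 members and below it in 5, with a median of -0.034 against 0.0053 over all tested genes.

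The wider pathway was read from 8 lists of regulators, partners and targets, with 146 symbols. Probe sets of 1 gene covered 123 of them, and 109 were tested. For silencing 0 of the 109 passed limma over all genes, with 7 higher and 3 lower without overlap between groups, where 6.94% and 4.87% of all tested genes were, so these counts do not exceed the background. Their median difference was 0.026. For number 1 against numbers 2 and 3, 8 of the 109 were called as higher and 9 as lower, against the 2.92% and 3.57% of all genes given above. These counts moved with the settings and with single arrays. Without a filter on dim genes 2 were called as higher and 3 as lower, with the 60th percentile limit 9 and 15 (of 85 tested), and with an intensity trend 16 and 16. Without control replicate 3, and likewise without silenced replicate 3, 0 were called as higher and 1 as lower, without control replicate 2 there were 4 and 8, without silenced replicate 2 there were 4 and 7, without silenced replicate 1 there were 5 and 12 and without control replicate 1 there were 14 and 10.

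Of the direct regulators of Egr proteins, Nab2 averaged 9.51 in control and 9.65 in silenced arrays, and Nab1 averaged 8.25 and 8.36. Neither passed the test, and the means of both were higher in number 1, by 0.20 and 0.39. Egr4, the other family gene, lay below the limit for testing. Serum response factor, Srf, read 7.71 and 7.80 in control and silenced arrays (difference 0.09 ± 0.17 SE). All 5 tested genes of its list had a higher mean in silenced arrays, with a median of 0.16, and 0 passed. Over all tested genes 5946 of 11292 had a higher mean in silenced arrays. Elk1, the Srf cofactor phosphorylated by ERK, did not overlap between groups, at 7.47 in control and 7.70 in silenced arrays (0.22 ± 0.08 SE, adjusted p = 0.871 by limma). Elk4, a related cofactor, differed by 0.14.

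Of 16 tested dimer partners of AP-1, the silenced mean exceeded the control mean in 9, and the median difference was 0.0027. Atf7, a Jun partner, read 8.42 in control and 8.64 in silenced arrays, without overlap. Crem, a cyclic AMP response factor, read 5.68 in control and 5.32 in silenced arrays, also without overlap (-0.36 ± 0.12 SE, adjusted p = 0.871 by limma). In number 1, 3 partners were called as lower and 0 as higher, where 3.57% and 2.92% of all tested genes were. The count called as lower was 1 (of 19 tested) without a filter on dim genes and 6 with an intensity trend. Atf3, a stress-induced Jun partner, averaged 5.99 in number 1 and 7.23 in numbers 2 and 3 (limma, adjusted p = 0.00222). Atf4 differed by -0.45 and Nfe2l1, named after its values were seen, by -0.43.

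Among 14 tested genes of the ERK and JNK routes, most of which encode kinases, the median difference for silencing was 0.0086 and 0 passed. Map2k2, which encodes the ERK kinase MEK2, read 8.86 in control and 9.11 in silenced arrays without overlap (0.25 ± 0.08 SE, adjusted p = 0.871 by limma). Those with the smallest p downward were Nras, encoding a GTPase that activates the ERK route, at -0.16 ± 0.12 (SE), and Mapk8, encoding JNK1, at -0.14 ± 0.11 (SE). In number 1 none of the 14 was called.

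The list named ERK feedback inhibitors held Dusp phosphatases and Sprouty and Spred proteins, with 13 genes tested. The name is loose, since not all of these phosphatases, Dusp8 among them, act mainly on ERK. The 13 genes had a median difference of 0.050 for silencing. Dusp8 read 6.77 and 7.00 without overlap, and Spry1 read 7.23 and 7.50 with overlap. By number they were all higher in number 1, 13 of 13 with a median of 0.23, while over all tested genes 5798 of 11292 were higher and the median was 0.0053. Called as higher were 3 of them, Spry4 (0.59 ± 0.10 SE), Dusp5 (0.67 ± 0.12 SE) and Dusp4 (0.74 ± 0.15 SE), the last named after its values were seen. The count was 0 without a filter on dim genes, 1 (of 9 tested) with the 60th percentile limit and 6 with an intensity trend. It was also 0 without control replicate 3 or silenced replicate 3 and 1 without silenced replicate 2. Leaving out silenced array 1, or silenced array 2, left 12 of 13 higher.

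The other immediate early genes, 32 tested, moved in both directions between numbers, with 3 called as higher and 3 as lower in number 1. Of all tested genes 2.92% and 3.57% were. The counts were 1 and 0 (of 33 tested) without a filter on dim genes and 4 and 7 with an intensity trend. Higher were the matrix proteins Ccn1 (0.56 ± 0.08 SE) and Ccn2 (0.55 ± 0.09 SE) and the EGF receptor inhibitor Errfi1 (0.62 ± 0.12 SE). Lower were Ier2 (-0.48 ± 0.08 SE) and the transcription factors Klf4 (-0.58 ± 0.09 SE) and Nfil3 (-0.63 ± 0.11 SE). Errfi1 and Nfil3 are named after their values were seen. Myc and Nr4a1 differed by -0.28 and -0.35 in number 1 and Dusp1 by 0.46, and none of these 3 was called. For silencing, the silenced mean was above the control mean in 21 of the 32, against 5946 of all 11292 tested genes, and the median was 0.022. Sik1 and Arc differed by 0.19 and 0.15 and Ier2 by -0.28, and Id3, a repressor of myogenic factors, was lower without overlap (4.98 in control and 4.73 in silenced arrays).

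Of 23 tested target genes commonly placed under AP-1 or Egr control, the silenced mean was above the control mean in 12, and the median was 0.0033. Cdkn1a, the cell cycle inhibitor p21, read 11.84 in control and 11.99 in silenced arrays without overlap. In number 1 the cyclin gene Ccnd1 (0.67 ± 0.09 SE) and the adhesion receptor gene Cd44 (0.40 ± 0.08 SE) were called as higher. Vegfa (-0.70 ± 0.08 SE), the matrix gene Dcn (-0.58 ± 0.08 SE) and Ptgs2 (-0.82 ± 0.13 SE), the last named after its values were seen, were called as lower. Of all tested genes 2.92% were called as higher and 3.57% as lower. Without a filter on dim genes the target counts were 1 and 2 (of 29 tested), and with an intensity trend 3 and 3. The 4 tested genes of AP-1 protein turnover included 0 calls, with Cops5 at -0.25 ± 0.11 (SE), the ligase gene Fbxw7 at -0.16 ± 0.09 (SE) and Itch at 0.12 ± 0.08 (SE) for silencing.

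**Figure D3:**
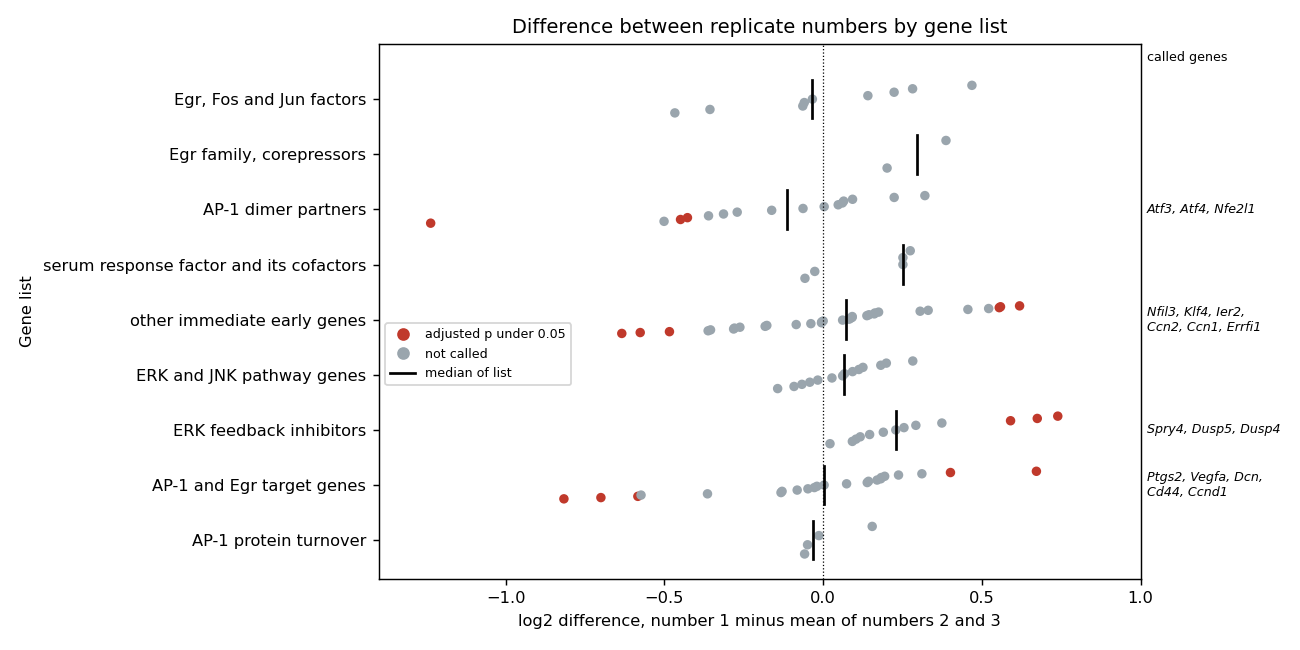
Log2 difference of number 1 minus the mean of numbers 2 and 3 (horizontal axis) for each tested gene of the Egr, Fos and Jun set and of 8 pathway lists (vertical axis). Each point is a gene, red where limma's adjusted p was under 0.05, with called genes named at the right and the list median as a black line. All 13 genes of the list named ERK feedback inhibitors lie above 0. Fos at 0.47 and Junb at -0.47 mark the ends of the top row.

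Profiles over the 6 arrays were compared by the root mean square difference of log2 values, each gene centred on its own mean, with no test. The genes closest to Egr1 were Csrnp1 (0.083), Ddx11 (0.093), Cited1 (0.094), Incenp (0.096) and Dusp1 (0.097), where the profile of Egr1 itself had a root mean square of 0.29. Csrnp1 and Dusp1 were also on the list of other immediate early genes. Like Egr1, all 5 were lowest in control array 3 and silenced array 3, which comes with their choice by likeness and is no separate result. Closest to Fos were Tubb4b (0.068), Tmem132a (0.070), Slc41a2 (0.076), Lcmt2 (0.077) and Zfp628 (0.079), against 0.26 for Fos itself. Closest to Jun were Higd2a (0.021), Urgcp (0.022), Edc4 (0.022), Cnnm3 (0.023) and Tmem107 (0.028), against 0.10 for Jun. A gene of small spread has many near neighbours by this measure.

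**Figure D4:**
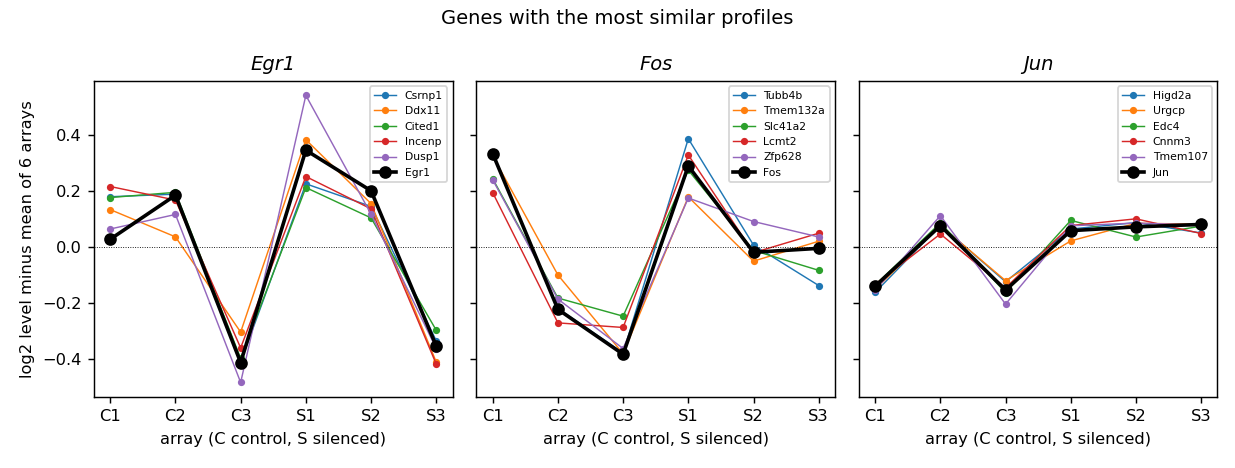
Log2 level minus the gene's mean over the 6 arrays (vertical axis) on control arrays C1 to C3 and silenced arrays S1 to S3 (horizontal axis), for Egr1, Fos and Jun in black and the 5 genes with the most similar profile to each in colour. Egr1 and its neighbours are low in C3 and S3, Fos and its neighbours high in C1 and S1. The neighbours were chosen for this likeness.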

How the data were processed

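Expression was measured on 6 one-colour Affymetrix whole-transcript arrays. The deposited table holds log2 values of 35556 probe sets that the authors computed by RMA, a step named in the submitters' processing notes. The RMA version is not given in the sources used here. The method compresses differences of dim genes toward 0. Values were used as deposited (medians per array 4.21 to 4.27). The annotation listed 23099 probe sets, 21218 with 1 gene, and 21185 of these matched RefSeq by Entrez identifier.

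The group comparison used limma 3.58.1 (lmFit, eBayes, 2-sided, under R 4.3.3) over 11292 genes, with Benjamini-Hochberg adjustment at 0.05. Replicate numbers were compared with group as a covariate, by an F test and by a contrast of number 1. Scripts were tested on simulated data. Arrays of 1 number deviated together from their group means (correlations 0.55, 0.35 and 0.42), and on this basis, not on a label, numbers pair the arrays. Arrays correlated pairwise between 0.985 and 0.995.

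Members and lists were chosen with earlier results of these data known. Named genes are all members, the 2 genes with the smallest p in each direction per list and comparison, a panel (Srf, Nab1, Nab2, Myc, Atf3, Dusp1, Nr4a1) and the 5 genes nearest to Egr1, Fos and Jun. Further genes under that rule are given by counts only, and genes named outside it are marked as such. Alternatives changed the filter, normalization, probe set rule, variance model, group term, block and arrays. The number of arrays limits the precision.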

Additional observations from a re-analysis of the deposited data

Results flagged for a closer look

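For Egr2 and Jund the difference between number 1 and numbers 2 and 3 ran in opposite directions in the 2 groups, array by array. In Egr2, control array 1 lay below both other control arrays (mean difference -0.15) and silenced array 1 above both other silenced arrays (0.59), 0.74 apart. In Jund the differences were -0.20 in control and 0.14 in silenced arrays, 0.34 apart. With 1 array per group and number the difference was not tested.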

How the results depend on the processing

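For silencing, 0 genes and 0 members were called under every alternative tried, the replicate block included (smallest adjusted p 0.421, with 1168 genes at an unadjusted p under 0.05 against 542 without the block, by limma). Of 113 member differences under alternatives, 103 kept their sign. Part of that count was fixed in advance. A changed filter, variance trend, block or probe set rule could not alter the difference of a member with 1 probe set. Only the further normalization and left-out arrays could turn a sign. Without both arrays numbered 1, Egr2 was -0.12, Fosb 0.037 and Fosl2 -0.033. Leaving out 1 array at a time gave -0.042 to 0.34 for Egr1, -0.072 to 0.26 for Egr2, -0.30 to 0.073 for Fosb, -0.041 to 0.049 for Fosl2 and -0.13 to 0.016 for Jund. Egr3, Fos, Jun and Junb kept their sign throughout. For Egr3 the lack of overlap between groups fixed the sign whichever arrays were left out.

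Number 1 against numbers 2 and 3 called 733 genes, and 252 without a filter, 1176 with the 60th percentile, 1458 with an intensity trend and 41 to 1228 with 1 array left out. Members called were 1 with the 60th percentile, 1 with averaged probe sets, 1 with the trend and 0 to 3 with 1 array left out. The differences then spanned -0.15 to 0.59 for Egr2 and -0.20 to 0.14 for Jund. The F test called 352 genes, and 58, 847, 1090 and 17 to 1070 in the same order, with 1 member called at the 60th percentile, 1 after quantile normalization, 1 with the trend and 0 to 3 with 1 array left out. The filter changes the genes tested, and leaving out an array leaves fewer samples. Averaging probe sets changed no member's own values, only those of other genes. The cause of the other shifts was not tested.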

Other observations

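Ccn1 and Errfi1 of the early gene list and Spry4 of the feedback list shared the low level of Egr1 in both arrays numbered 3. The pattern was seen after the values were known and was not tested. How many listed genes, or genes overall tested, have it was not counted. Ccn1 read 9.56 in control array 3 and 9.65 in silenced array 3, against 10.22 to 10.50 in the other 4 arrays. Errfi1 read 7.78 and 7.53 against 8.08 to 8.64, and Spry4 read 4.62 and 4.33 against 4.96 to 5.37. Many listed genes did not share it. Klf4, Junb, Ier2, Nfil3 and Myc, for example, were lowest in control array 1 and silenced array 1.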
